A study of Mus musculus with 2 samples.

Results

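The genes described here handle thyroid hormone: Dio2, which encodes the deiodinase that makes the active hormone; Ttr, which encodes the carrier transthyretin; Thra and Thrb, which encode the nuclear receptors; and Crym, which encodes a cytosolic binding protein. All probe sets annotated to 1 of these 5 symbols alone were taken, which gave 12 of the 45101 probe sets on the array. The set was chosen by the measured null against control ratios, because Dio2 and Ttr differed strongly and in opposite directions, so their ratios are given as a description and support nothing further. Uterine stromal cells of C57BL/6 mice were profiled on day 4 of pregnancy, near the time when the mouse blastocyst attaches, on Affymetrix 3' expression arrays. The 2 samples were Msx1Msx2-null cells, from mice in which floxed Msx1 and Msx2 had been deleted in the uterus with PRcre, and Msx1Msx2 floxed control cells. PRcre places Cre recombinase under the progesterone receptor gene, which is active in the epithelium and the muscle of the uterus as well as in the stroma, so the deletion was not limited to the cells profiled. Both groups carried the floxed alleles, and whether control mice carried Cre is not given in the labels. RNA of 5 mice per genotype was pooled by the design text, or of 4 by the extraction protocol, and each pool was hybridized to 1 array. No spread between mice or hybridizations could therefore be estimated, and no test was made.

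Most thyroid hormone leaves the thyroid as the prohormone thyroxine, which travels on plasma carriers, crosses the cell membrane through transporters and is turned into the active hormone triiodothyronine inside the cell. The type 2 deiodinase Dio2 carries out that activation in target tissues, while the type 3 deiodinase inactivates both hormones. Triiodothyronine binds the receptors of Thra and Thrb, which sit on DNA with a retinoid X receptor (RXR) partner and switch between corepressors and coactivators.

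Values are MAS5 signals on a linear scale, and ratios are log2 of null minus log2 of control. Dim signals were judged against a floor, the 50th percentile of each array, which was 30.1 in null cells and 31.0 in control cells. Where 1 of 2 signals lay under the floor it was raised to it, and the fold is given as "at least". A signal under the floor does not show that a gene was silent. The targeted gene Msx1 had a signal of 23.0 in null cells and 1581 in control cells on its brighter probe set, at least 52.6-fold lower. Msx2 had 14.5 in null cells and 63.7 in control cells, at least 2.12-fold lower. The ratio of 3' to 5' signal, a measure of RNA degradation, was 1.28 in null cells and 0.967 in control cells for Gapdh, and 2.33 in null cells and 1.80 in control cells for Actb. The part of this difference in the ratios below was not tested.

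Dio2 was higher in null cells on each of its 3 probe sets, between 3.43-fold and 5.26-fold. On 1418937_at, the brightest, the signal was 3816 in null cells and 726 in control cells, a log2 ratio of 2.39. On 1418938_at it was 287 in null cells and 83.6 in control cells, a log2 ratio of 1.78. On 1426081_a_at it was 268 in null cells and 68.6 in control cells, a log2 ratio of 1.96. Both signals of every Dio2 probe set lay above the floor, so none of these ratios is a bound. Within their arrays the 3 signals stood between the 82.6th and the 99.0th percentile in null cells and between the 62.2nd and the 93.2nd in control cells. Over 4690 genes with 2 bright probe sets, the probe noise of a log2 ratio, estimated as an SD from the difference between such pairs, was 0.27. That SD does not cover the spread between mice.

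**Figure D1:**
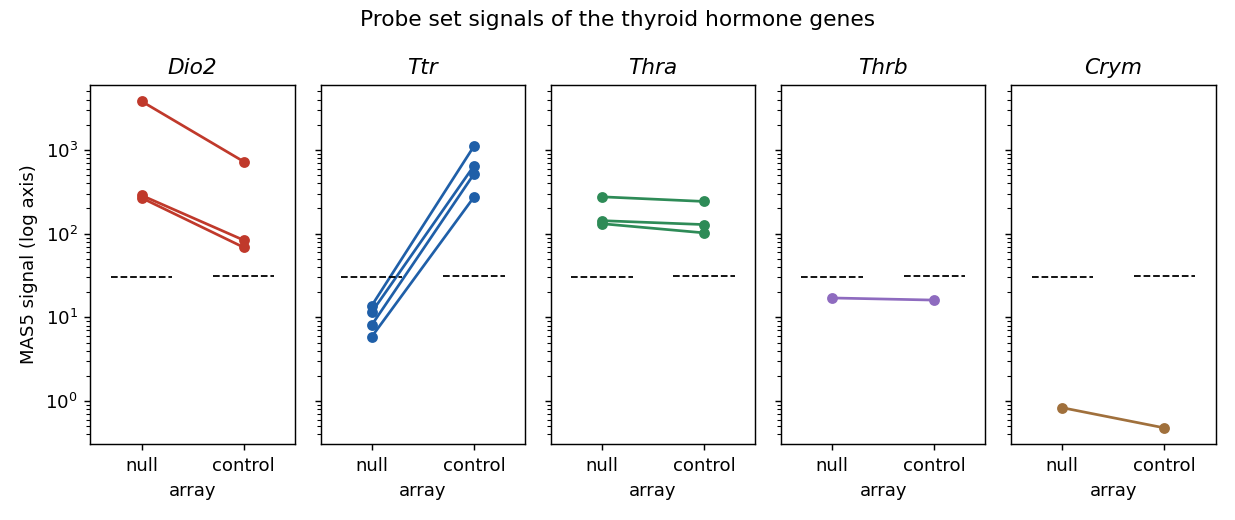
MAS5 signals (log axis) of every probe set of Dio2, Ttr, Thra, Thrb and Crym in the null and the control array, with a line for each probe set and dashed lines at the floors of 30.1 (null) and 31.0 (control). The 3 Dio2 lines run higher in null cells, the 4 Ttr lines lie under the floor in null cells only, the 3 Thra lines are nearly level, and Thrb and Crym lie under the floor in both arrays.

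By its brightest probe set Dio2 was among the highest ratios of 11833 genes above the floor in at least 1 array. It came 14th with bounds taken at their stated values. That rank is not exact, because genes placed lower by a bound, such as Defb3 with a bound of 2.19, may stand above it. Of those genes 1.59% passed 2-fold upward in null cells and 1.8% downward. Of single probe sets, 1.31% passed upward and 1.84% downward. Of 2111 genes with 3 or more measured probe sets, 3 passed 2-fold upward on all of them, Dio2 among these, and 6 downward, Ttr among these. The other two that were higher were Calb1, a calcium-binding protein gene, and the ectonucleotidase gene Enpp3. Nothing is read from these shares, since the contrast itself chose the gene.

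The Dio2 promoter is shown because Dio2 is the member with the clearest higher signal and because the gene is known to be induced through cyclic AMP. These are the 250 bases before the start of transcription in RefSeq's GRCm38.p6 annotation, chr12:90739039-90739288 on the minus strand, with the motif matches in capitals.
Dio2 promoter: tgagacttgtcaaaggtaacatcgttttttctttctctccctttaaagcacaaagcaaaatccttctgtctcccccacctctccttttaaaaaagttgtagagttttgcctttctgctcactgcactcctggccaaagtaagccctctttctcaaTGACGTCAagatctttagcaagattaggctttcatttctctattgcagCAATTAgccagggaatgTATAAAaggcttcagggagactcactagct
Both strands were searched for 4 motifs. The cyclic AMP response element TGACGTCA lay 95 to 88 bases before the start, and 1.55% of 32851 promoter windows of this length held it. The homeodomain core TAATTG, which Msx proteins are known to bind, matched on the opposite strand as CAATTA, 47 to 42 bases before the start, and 7.17% of windows held it. The TATA box letters TATAAA lay 30 to 25 bases before the start and were in 12.4% of windows. The hormone receptor core AGGTCA was not in this window and was in 14.0% of all windows. The matches do not overlap each other, and a match is a description of letters, not of binding.

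Genes that act on the Dio2 enzyme differed little between the arrays. Wsb1, the substrate adaptor of a ubiquitin ligase for Dio2, had a signal of 466 in null cells and 553 in control cells, a log2 ratio of -0.25. Marchf6, another Dio2 ubiquitin ligase, had 934 in null cells and 1005 in control cells, a log2 ratio of -0.10. The deubiquitinases of Dio2, Usp33 and Usp20, had log2 ratios of -0.27 and -0.14. All 4 ratios were negative, where 5648 of 11833 genes above the floor had negative ratios. Of the 4, 0 passed 2-fold, where 3.39% of all genes passed it in either direction. The count of 0 is therefore not a result about these genes. With the median over probe sets 3 of 4 were negative, since the dimmer probe set of Marchf6 had 0.26. Dio2 is a selenoprotein, and of 7 genes for the insertion of selenocysteine 0 passed 2-fold, again not a result beside that share. Among these, Secisbp2l, a homologue of the SECIS-binding protein, had 752 in null cells and 573 in control cells, a log2 ratio of 0.39, whereas -0.52 was found on another probe set. Trnau1ap, which associates with the selenocysteine tRNA, had -0.25. The deiodinase gene Dio1, which acts mainly in liver and kidney, lay under both floors, with 3.11 in null cells and 4.08 in control cells. Dio3 is not analysed here.

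Ttr was lower in null cells on all 4 of its probe sets, with every null signal under the floor and every control signal far above it. Transthyretin carries thyroxine, and retinol together with retinol-binding protein, in plasma and cerebrospinal fluid. On 1454608_x_at the signal was 13.8 in null cells and 1106 in control cells, at least 36.8-fold lower. On 1459737_s_at it was 11.6 in null cells and 646 in control cells, at least 21.5-fold lower. Suffixes such as _x_at and _s_at mark probe sets with probes shared by other transcripts.
On 1455913_x_at the signal was 8.11 in null cells and 515 in control cells, at least 17.1-fold lower. On 1451580_a_at, which has neither suffix, it was 5.88 in null cells and 273 in control cells, at least 9.08-fold lower. The direction was therefore the same on all 4 probe sets, and the smaller bounds went with lower control signals, because the floor limits the fold that can be stated. The null signals stood between the 21.2nd and the 36.6th percentile of their array and the control signals between the 82.9th and the 95.7th of theirs. Ttr was among the lowest ratios of the 11833 genes, with the gland protease inhibitor gene Spink1 and Msx1 itself, and no rank is given because the ratios of Ttr and Msx1 are bounds.

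**Figure D2:**
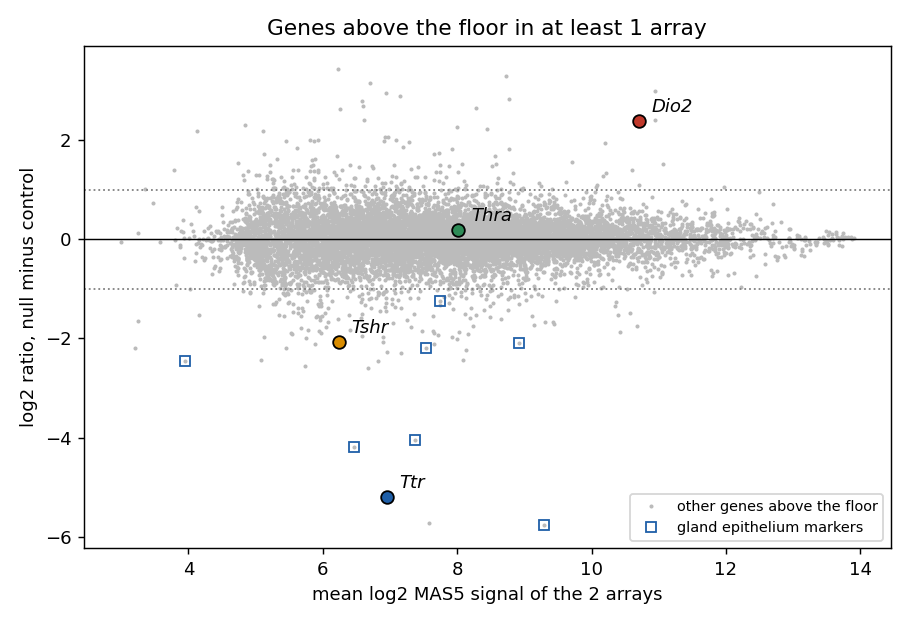
Log2 ratio of null minus control against the mean log2 MAS5 signal of the 2 arrays, 1 point for each of 11833 genes above the floor in at least 1 array, with dotted lines at 2-fold and open squares for the 7 gland epithelium markers. Dio2 stands at 2.39 among bright genes, Ttr at -5.20 beside the gland markers, Tshr at -2.08 and Thra at 0.18.

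Markers of the uterine gland epithelium were lower in the same array as Ttr. The listed markers were chosen with earlier results of these data known, so their values are given as a description and support nothing further. All 7 passed 2-fold downward in null cells, where 1.8% of all genes above the floor did. The median log2 ratio of the 7 markers was -2.45 beside 0.02 over all genes. Their summed signal was 604 in null cells and 7769 in control cells, and most of the control sum came from Spink1 alone. Spink1 had 85.2 in null cells and 4657 in control cells. Foxa2, the transcription factor of gland cells, had 87.4 in null cells and 397 in control cells. The implantation protease genes Prss28 and Prss29 were under the floor in null cells, at 1.46 and 14.3, and had 164 and 546 in control cells. The remaining markers were the chemokine gene Cxcl15 (log2 ratio -2.08), the cytokine gene Lif (-1.25) and the protease inhibitor gene Wfdc3 (-4.05). The part of gland cells in the Ttr difference was not tested, and fewer cells of a type and less RNA per cell cannot be told apart in pooled RNA. Transcripts of general epithelial markers were above the floor in both arrays, some of them far above it. Krt8 had 1703 in null cells and 2255 in control cells, at the 97.4th and the 98.1st percentile. Others were dimmer, such as Krt7 with 218 in null cells and 321 in control cells. Of 11 measured markers 3 had positive and 8 negative ratios, with a median of -0.10, beside 6185 positive and 5648 negative over all genes. The keratin gene Krt19 was 2.05-fold higher and Krt18 2.09-fold lower. The share of epithelial cells in either pool was not tested. Epcam, the epithelial adhesion molecule, had 940 in null cells and 987 in control cells.

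Among the other carriers and binding proteins only Rbp4 was above the floor. Rbp4, which encodes the retinol-binding protein that travels with transthyretin, had 107 in null cells and 135 in control cells, a log2 ratio of -0.33. Serpina7, the gene of thyroxine-binding globulin, had 3.84 in null cells and 0.306 in control cells, and the albumin gene Alb had 3.56 in null cells and 3.40 in control cells, all under the floor. Crym encodes mu-crystallin, which binds triiodothyronine in the cytosol. Its single probe set had 0.834 in null cells and 0.479 in control cells, at the 5.24th and the 2.75th percentile of those arrays. No ratio is given for these 3 genes, because both signals lay under the floor.

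Liver and visceral endoderm make transthyretin, and their 7 listed markers gave almost no signal. Which cells held the Ttr transcripts was not tested. Afp, Apoa1, Apoh, Fgb, Fgg and Ahsg lay under both floors on their brightest probe sets, with signals between 0.574 and 12.1 in null cells and between 0.411 and 7.17 in control cells. The apolipoprotein gene Apoa2 had 40.2 in null cells and 43.5 in control cells.

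Of 6 measured transporter genes 4 were above the floor and 0 passed 2-fold. Over all genes 3.39% passed it in either direction, so the count is not a result about transporters. Slc3a2, the heavy chain of the amino acid transporters that also carry iodothyronines, had 923 in null cells and 873 in control cells, a log2 ratio of 0.08. Its light chains Slc7a5 and Slc7a8 had log2 ratios of 0.06 and -0.17. Slc16a10, the monocarboxylate transporter for iodothyronines and aromatic amino acids, had 45.2 in null cells and 22.9 in control cells, a bound of 0.54 on the log2 scale, and its other 3 probe sets stayed under both floors. The organic anion transporter genes Slco1c1 and Slco1a4 lay under both floors, with 9.22 and 2.06 in null cells and 6.03 and 3.59 in control cells.

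Thra was measured in both arrays and differed little. Its receptor mediates hormone action in heart, brain and bone among other tissues. On 1454675_at the signal was 276 in null cells and 243 in control cells, a log2 ratio of 0.18. On 1426997_at it was 143 in null cells and 128 in control cells, a log2 ratio of 0.16. On 1443952_at it was 132 in null cells and 102 in control cells, a log2 ratio of 0.36. All 3 were slightly higher in null cells, the brighter pair by less than the probe noise of 0.27 and the third by slightly more. Thra makes a hormone-binding receptor and a splice form that does not bind hormone, and which forms these probe sets read is not given in the annotation. Nr1d1, the clock repressor gene that overlaps the end of Thra on the opposite strand, had 28.9 in null cells and 52.1 in control cells, at least 1.73-fold lower. Thrb, whose receptor acts in liver, pituitary and the inner ear, had 17.1 in null cells and 16.1 in control cells on its single probe set, under the floor in both arrays and at the 40.7th and the 38.9th percentile.

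The RXR partners Rxrb and Rxra had 351 and 132 in null cells and 284 and 86.9 in control cells, log2 ratios of 0.30 and 0.60. The other measured probe set of Rxra went the opposite way, with -0.36. Rxrg was under the floor in both arrays. The 3 measured genes of this list, Thra, Rxra and Rxrb, had positive ratios, as 6185 of 11833 genes above the floor did, and 0 passed 2-fold. Of 10 measured coregulators 0 passed 2-fold. Beside the 3.39% of all genes past 2-fold in either direction, neither count is a result about these lists. The coregulator extremes were Crebbp, a histone acetyltransferase, at -0.23, and Tbl1xr1, a subunit of the corepressor complex, at 0.17. Other probe sets of Crebbp ran from -0.52 to 0.32.

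Of 9 measured genes that triiodothyronine is known to induce in other tissues, 8 were above the floor and 0 passed 2-fold, where 3.39% of all genes passed it in either direction, so the count is not a result about these genes. Their median log2 ratio was -0.09 beside 0.02 over all genes. Klf9, a receptor target and transcription factor, had 3430 in null cells and 3702 in control cells, a log2 ratio of -0.11. Its 6 measured probe sets disagreed, from -1.26 on 1422264_s_at to 0.04 on 1428288_at. Thrsp, the lipogenic Spot 14 gene, had 425 in null cells and 265 in control cells, a log2 ratio of 0.68, and 0.12 on its other measured probe set. Hr, the hairless corepressor gene, had 56.6 in null cells and 21.0 in control cells, a bound of 0.87, whereas its dimmer probe set had 12.6 in null cells and 31.8 in control cells. The sarcoplasmic calcium pump gene Atp2a2 and the calcineurin regulator gene Rcan2 had log2 ratios of -0.01 and -0.07. Other probe sets of Atp2a2 ran from -0.52 to 0.03. Cpt1a, for mitochondrial fatty acid uptake, the malic enzyme gene Me1 and Bcl3, an NF-kappaB cofactor, had -0.39, -0.31 and -0.30, with a Cpt1a probe set of opposite sign.

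**Figure D3:**
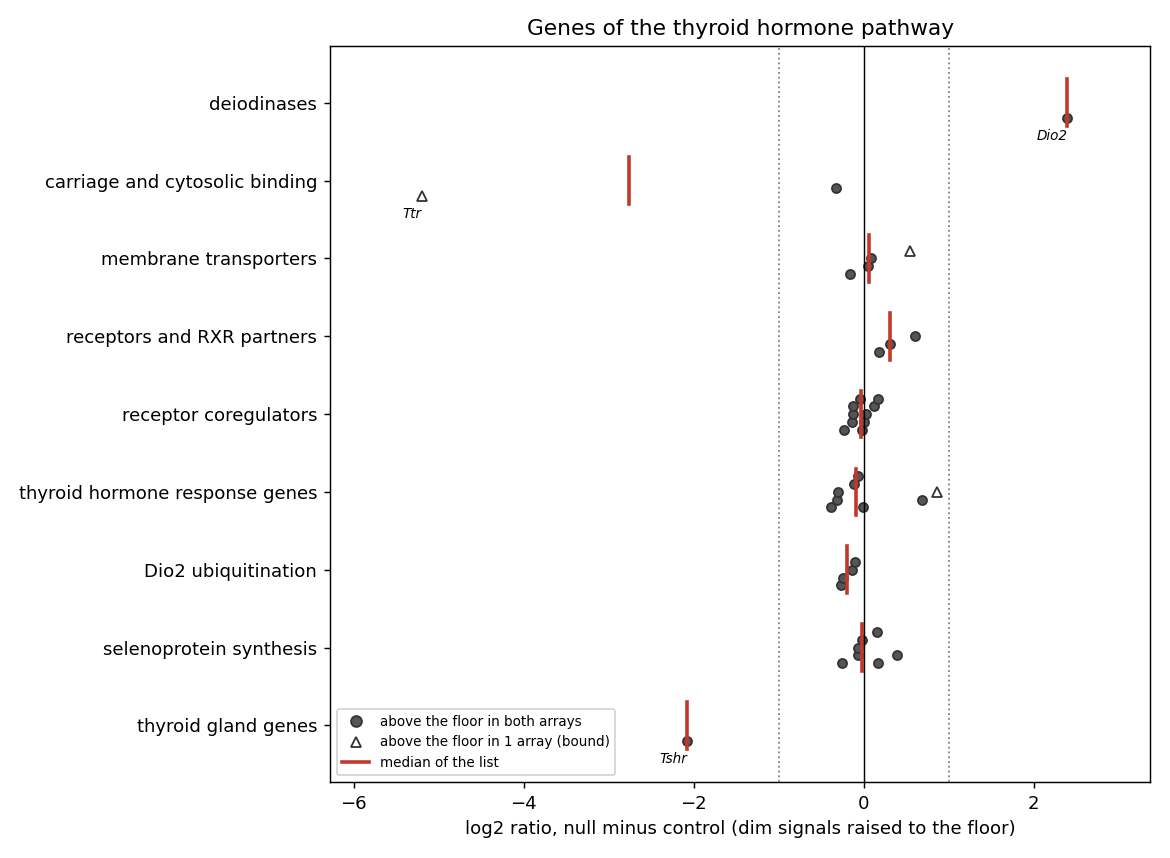
Log2 ratio of null minus control for each gene of 9 thyroid hormone lists that was above the floor in at least 1 array; filled circles were above the floor in both arrays, open triangles are bounds, red lines are list medians and dotted lines mark 2-fold. Dio2 (2.39), Ttr (-5.20) and Tshr (-2.08) are the genes outside the dotted lines.

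Tshr, the receptor of thyrotropin, was lower in null cells. Its signal on 1421999_at was 36.7 in null cells, near the floor, and 155 in control cells, a log2 ratio of -2.08. On 1442300_at it was 22.5 in null cells and 68.7 in control cells, a bound of -1.19, and its remaining probe set was under the floor in both arrays. The other measured thyroid gland genes gave no usable signal: the thyroglobulin gene Tg, the iodide transporter gene Slc5a5, Nkx2-1 and the iodotyrosine deiodinase gene Iyd lay under both floors. Over all 9 lists 52 genes were on the array and 40 were above the floor. Without the 5 chosen genes, 37 were above the floor, of which 0 passed 2-fold upward and 1, Tshr, downward. That is 2.70%, near the 3.39% of all genes past 2-fold in either direction, and so is not a result about the pathway.

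The cells carried the defining transcripts of stroma. All 12 stromal markers lay above both floors and 0 passed 2-fold, with Col3a1 at 15211 in null cells and 14643 in control cells. Over all genes 3.39% passed 2-fold in either direction, so a count of 0 in these marker lists is not a result about them. Of the 11833 genes above the floor 6185 had positive and 5648 negative ratios. Hoxa11 and Hand2, stromal transcription factor genes of the uterus, had the largest ratios, 0.80 and 0.63. The 8 endothelial markers all had negative ratios and 0 passed 2-fold, with a summed signal of 2936 in null cells and 4583 in control cells and a median log2 ratio of -0.76. The most negative were Emcn (-0.89) and Pecam1 (-0.80). The 8 macrophage markers also had negative ratios, with a summed signal of 4033 in null cells and 6064 in control cells. Among them Fcgr3 (-1.08) and Mrc1 (-1.02) passed 2-fold downward, where 1.8% of all genes did. With median-centred arrays or with log2(signal + 16) only 1 of these macrophage markers passed. Of 9 smooth muscle and pericyte markers 0 passed 2-fold, with 5 positive and 4 negative ratios. Notch3 (-0.81) and Cnn1 (0.70) were their extremes. Their summed signal was 15644 in null cells and 15884 in control cells, a near-equal sum that hides opposite differences. Its brightest genes were Acta2, with a log2 ratio of 0.41, and Rgs5, with -0.51. Other probe sets of Rgs5 ran from -1.15 to -0.75. Brown fat is a classic site of Dio2, and the 5 measured adipocyte markers, Adipoq, Cidec, Lep, Ucp1 and Cidea, lay under both floors, Ucp1 with 1.45 in null cells and 0.896 in control cells. Of 7 blastocyst markers Eomes was above the floor in both arrays, with 113 in null cells and 71.6 in control cells. The other Eomes probe set was nearly level, with 76.2 in null cells and 73.4 in control cells. Elf5 was above the floor in null cells alone, with 37.2 in null cells and 10.7 in control cells, a bound of 0.26 on the log2 scale. Its other probe set was under both floors. Cdx2, Pou5f1, Nanog, Gata4 and Tdgf1 lay under both floors. Which cells held the Dio2 transcripts was not tested.

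**Figure D4:**
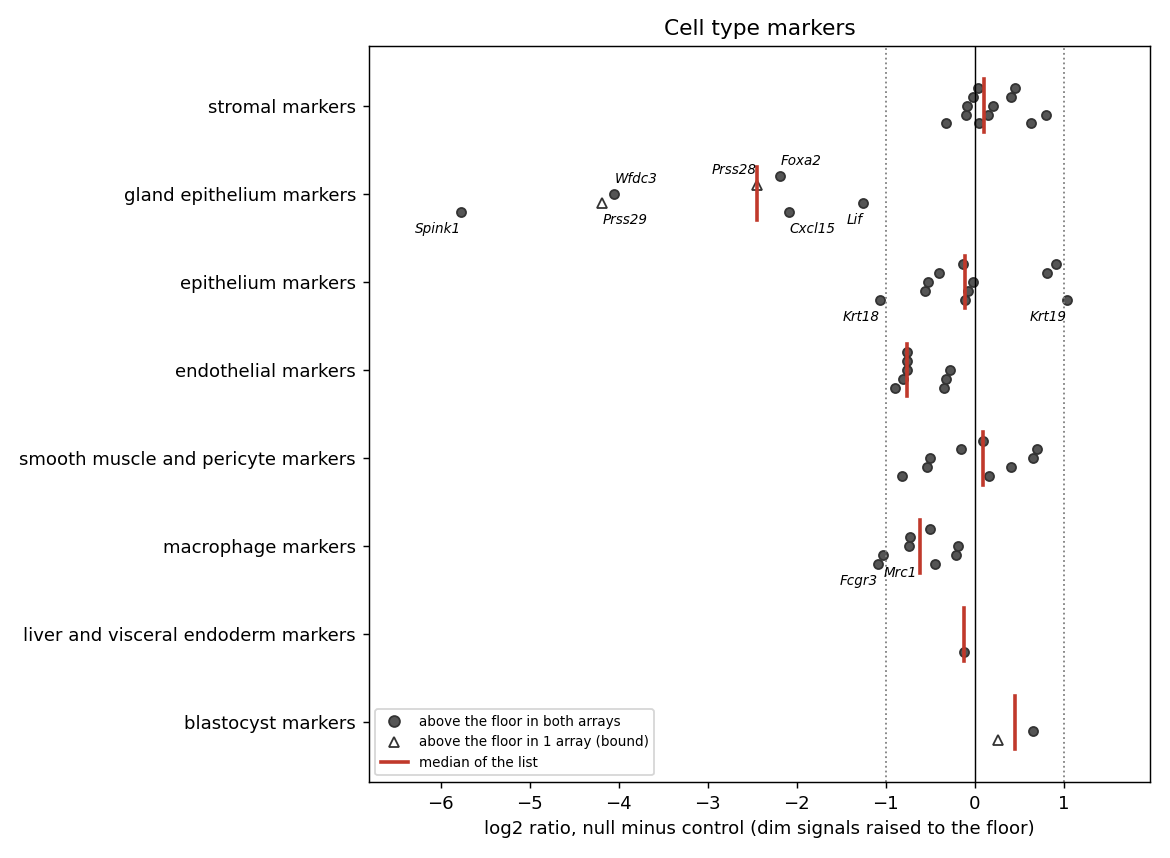
Log2 ratio of null minus control for cell type markers above the floor in at least 1 array; filled circles were above the floor in both arrays, open triangles are bounds, red lines are list medians and dotted lines mark 2-fold. The 7 gland epithelium markers lie between -5.77 and -1.25, stromal markers between -0.32 and 0.80, and endothelial markers between -0.89 and -0.28.

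With 2 arrays a gene's pattern is a pair of signals, and likeness was measured as the distance between pairs of log2 signals of each gene's brightest probe set. Signals of different probe sets are not calibrated to each other. The pairs nearest to Dio2 were those of Calb1 (3804 in null cells and 750 in control cells, distance 0.05), the collagen VI chain gene Col6a4 (4516 in null cells and 851 in control cells, distance 0.33) and Sprr2f, a small proline-rich protein gene (5565 in null cells and 704 in control cells, distance 0.55). By signals as deposited, the pairs nearest to Ttr were those of Msx1, Prss29 and Wfdc3. The null signals of Ttr, Msx1 and Prss29 lay under the floor, so no distance or order is given for them.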

How the data were processed

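The authors deposited a linear intensity for every probe set of either array. The submitters' processing notes name MAS5 and Affymetrix Expression Console 1. MAS5 subtracts mismatch and background signal, which makes ratios between dim signals unstable. The trimmed mean signal was 150.0 in each array, so both arrays had been scaled alike. Neither detection calls nor scaling settings are given in the labels, and the number of arrays limits the precision. No genome build was given for the probes.

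Of the probe sets 34945 had 1 symbol in the platform annotation, 932 several and 9160 none, beside 64 control probe sets. Signals were not scaled further before log2 was taken. Each gene took the ratio of its brightest probe set by mean log2 signal, and 11833 of 18193 genes were above the floor in at least 1 array. Counts use a 2-fold threshold, and no p-value was computed. The counting code was run on simulated data in which only bright genes were changed, well past the threshold and with less noise than the probe noise. That run checks the code and not the counts, least of all those of dim genes. Named were all members, all genes of the lists on deiodinases, carriage, transporters, receptors, response genes and Dio2 ubiquitination, genes past 2-fold in the other lists or else their 2 largest ratios, and the 3 nearest pairs; Enpp3 and further list members were named after their values were seen. The members and lists were chosen with earlier results of these data known. Alternatives changed the floor, the probe set rule, the scaling and the pseudocount. Python 3.11.15 with pandas 2.3.3 was used.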

Additional observations from a re-analysis of the deposited data

How the results depend on the processing

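Dio2 stayed higher and Ttr lower in null cells, both past 2-fold, under all 7 alternatives, while the size of Ttr followed the floor. The log2 ratio of Dio2 was 1.96 with the median over probe sets. That of Ttr was -6.32 with no floor, -3.77 with the floor at the 65th percentile, -4.26 with the median over probe sets and -3.18 without _x_at and _s_at probe sets. Thra ranged from 0.17 to 0.23. Thrb and Crym stayed under the floor in both arrays at either percentile. Among the pathway genes 5 were at least 2-fold higher with no floor, and 1 was lower with the higher floor, where Tshr dropped under 2-fold. Over all genes no floor gave 1797 higher and 1772 lower genes, and the higher floor gave 97 higher and 123 lower, since dim genes enter or leave. With no floor the median of the carriage list turned to 0.064 and that of the thyroid gland list to 0.64, as genes under the floor then enter. With median-centred arrays the medians of the coregulator and selenoprotein lists turned positive, at 0.016 and 0.032. Signals near the floor limit what can be said of Thrb, Crym, Hr, Tshr and Slc16a10. No paired analysis was possible because each genotype had 1 array.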
